A study of Homo sapiens with 20 samples.

Results

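The MS4A gene cluster on chromosome 11 carried 8 of the 26642 RUNX1 peaks in the deposited count table. The 8 are all peaks within 50 kb of the RefSeq span (GRCh38) of MS4A1, MS4A2, MS4A3, MS4A4A, MS4A6A, MS4A7 or MS4A14, a rule of position that uses no count. The joined windows covered 514 kb and held 15.6 peaks per Mb, where chromosome 11 below 110 Mb held 6.77 peaks per Mb (745 peaks). The first value is for windows set around genes and the second for the whole stretch, with or without genes, so they are not like for like. Chromatin bound by RUNX1 had been immunoprecipitated and sequenced (ChIP-seq) from THP-1 cells, a long-established line grown from human acute monocytic leukemia. The cells carried an inducible cassette with either an shRNA against PU.1 (knockdown, n = 6 libraries) or a scramble shRNA (control, n = 6 libraries), and doxycycline induced the cassette in both. The 6 control libraries were split evenly over 2 batches (3 each), whereas 2 of the knockdown libraries belonged to batch 1 and 4 to batch 2. All libraries came from this cell line as replicates with independent immunoprecipitations, so the p-values measure the spread between such libraries. Each shRNA was carried by its own THP-1 cells, so any other difference between these cells cannot be told apart from the knockdown.

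PU.1, encoded by SPI1, is an ETS family transcription factor needed for monocyte and macrophage development, and RUNX1 is one of its binding partners. The MS4A genes encode small proteins that cross the cell membrane several times, and different blood cell types express different members. MS4A1 encodes the B cell antigen CD20, MS4A2 the beta chain of the high-affinity IgE receptor of mast cells and basophils, and MS4A3 marks granulocyte-monocyte progenitors. MS4A4A, MS4A6A and MS4A7 are known from monocytes and macrophages. ChIP-seq measures no transcripts, so neither the level of PU.1 nor the expression of these genes could be checked in these libraries.

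The control libraries held 630247 to 1199004 reads in peaks and the knockdown libraries 938745 to 1719840. Of these, 105 to 241 reads per control library and 119 to 225 per knockdown library fell into the 8 peaks. Single peaks were therefore measured on few reads, down to 3 reads in a library. The mean of each peak lay between the 4.07th and the 57.7th percentile of all peaks. Chromosome 11 below 110 Mb as a whole was lower in the knockdown: it took 2.22% to 2.40% of the in-peak reads of control libraries and 1.90% to 2.01% of those of knockdown libraries, and the groups did not overlap. For this reason each peak was compared on the scale of all peaks and again relative to chromosome 11. A lower count in bulk chromatin cannot tell fewer bound cells from less binding per cell.

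The 8 peaks are named here after a gene close by, which is the nearest gene for all but the farther MS4A6A peak. MS4A3 had a peak over its start site (chr11:60056164-60057043), and this was also the closest peak to MS4A2, at 31216 bp. MS4A6A, on the minus strand, had one peak that began 434 bp upstream of its start (chr11:60185100-60185683) and another 9006 bp upstream (chr11:60193672-60194616), which lay closer to MS4A4E, at 5654 bp, but is named after the listed gene. MS4A7 had an upstream peak 13924 bp before its start (chr11:60363589-60364608) and an internal peak whose edge lay 10653 bp past its start (chr11:60389185-60390108). The MS4A14 peak began 37 bp past the start of that gene (chr11:60396496-60397268). A peak 541 bp upstream of MS4A5 (chr11:60428525-60429031) lay 26816 bp from MS4A1, and a peak inside MS4A12 (chr11:60504137-60504774) lay 33385 bp from MS4A1. No peak lay within 50 kb of MS4A4A, whose nearest peak was 54619 bp away. Positions are GRCh38 throughout, and exons and introns were not assigned.

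Promoter sequences show where the peaks stood relative to the gene starts. RefSeq promoter windows (GRCh38.p14, 250 bases before to 50 after a start site) were found for 6 of the 7 genes, MS4A1 being the gene with no entry. Windows of 3 genes are shown because they differ in how they meet a peak: the MS4A3 window lay inside its peak with all 300 bases, the MS4A14 window shared 13 bases with its peak, and the MS4A6A window shared 0 bases with the peak upstream of it. Capitals mark the PU-box core GAGGAA.
MS4A3 (chr11:60056415-60056714, plus strand): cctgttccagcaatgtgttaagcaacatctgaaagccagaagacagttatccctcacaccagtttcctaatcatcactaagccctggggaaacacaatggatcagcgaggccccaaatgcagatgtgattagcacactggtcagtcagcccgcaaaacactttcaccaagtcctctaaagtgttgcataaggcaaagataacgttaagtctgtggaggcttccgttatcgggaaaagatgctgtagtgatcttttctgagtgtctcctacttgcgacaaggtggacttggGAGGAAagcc
MS4A6A (chr11:60184617-60184916, minus strand): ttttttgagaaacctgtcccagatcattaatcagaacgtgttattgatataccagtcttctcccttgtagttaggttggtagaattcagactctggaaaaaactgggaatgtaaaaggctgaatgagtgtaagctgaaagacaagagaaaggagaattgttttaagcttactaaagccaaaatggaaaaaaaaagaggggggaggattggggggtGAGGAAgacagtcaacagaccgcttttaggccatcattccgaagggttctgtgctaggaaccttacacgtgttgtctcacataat
MS4A14 (chr11:60396209-60396508, plus strand): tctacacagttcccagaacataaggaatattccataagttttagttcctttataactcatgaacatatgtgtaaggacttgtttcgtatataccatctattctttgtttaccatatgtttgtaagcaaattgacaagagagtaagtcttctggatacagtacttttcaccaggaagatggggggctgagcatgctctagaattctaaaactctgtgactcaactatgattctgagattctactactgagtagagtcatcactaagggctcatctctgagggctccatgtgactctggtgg

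The windows were searched on both strands for GAGGAA and, separately, for the RUNX core, TGTGGT. The PU-box core began 40 bases past the start of MS4A3 and at position -35 from the MS4A6A start shown, and 27.85% of the 35116 promoter windows in the table held it. The table held 4 start sites for MS4A6A, of which 1 other had the core, at position -129, and 2 had no match. The core was also present in the windows of MS4A2, MS4A4A and MS4A7, with 3 matches in that of MS4A4A, and absent from that of MS4A14. TGTGGT was in no window of the 6 genes and in 13.07% of all windows. These letters describe the windows only, since only the MS4A3 window was wholly covered by a peak, and peak sequences were not read here.

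Across the cluster, RUNX1 signal was lower in the knockdown at 4 peaks, higher at 1 and not called at 3. The lost peaks were both MS4A6A peaks, the internal MS4A7 peak and the MS4A14 peak, and the gained peak was the one inside MS4A12. A peak was called where DESeq2, with batch as a covariate, gave a Benjamini-Hochberg adjusted p under 0.05 over all peaks and a fold change over 1.1. Over all peaks tested, 20.7% were lost and 21.3% gained, whereas on chromosome 11 below 110 Mb 36.4% were lost and 13.6% gained. The median log2 fold change of the 8 peaks was -0.37, beside -0.33 on chromosome 11 below 110 Mb and -0.025 over all peaks. The cluster median depends on which peaks enter it: it was -1.31 for the 5 peaks within 10 kb of the genes, -0.76 for the 9 within 100 kb and 0.16 for the 4 with at least 10 counts in every library. The count filter also applies to knockdown libraries, so a peak can fail it through its loss. Of the 4 lost peaks, 3 did not pass it, so the last median is not like the others. Single peaks ran from the 1.48th to the 86.6th percentile of chromosome 11.

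**Figure D1:**
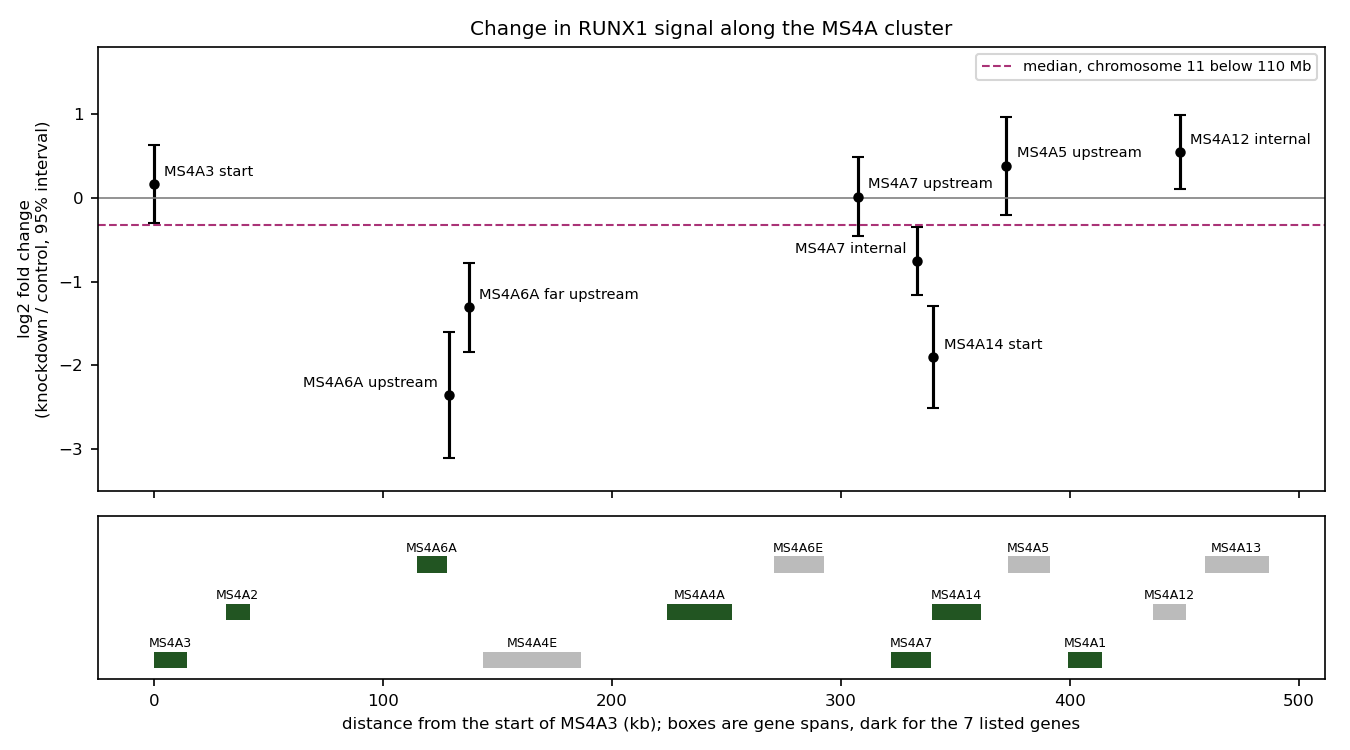
Log2 fold change of RUNX1 signal (knockdown over control, with 95% intervals) at the 8 peaks against distance from the start of MS4A3 in kb, with gene spans drawn beneath. Points far below 0 sit at MS4A6A and MS4A14, and the peaks at MS4A3, MS4A5 and MS4A12 sit above 0.

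Next to MS4A6A, a gene of monocytes and macrophages, both RUNX1 peaks lost signal. The peak 434 bp upstream had 12.1, 20.3 and 27.0 normalised reads (lowest, median and highest control library) and 1.98, 3.68 and 9.32 in the knockdown. Every knockdown library stood below every control library. The signal fitted by DESeq2, which adjusts for batch and need not give the ratio of the group means, was 5.13-fold lower (means 19.9 ± 6.37 against 4.33 ± 2.70, SD, n = 6 each), with a log2 fold change of -2.36 ± 0.38 (SE, DESeq2 adjusted p = 1.3e-08). The knockdown value rests on 31 reads in all 6 libraries, and the 95% interval of the log2 fold change ran from -3.11 to -1.61.

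The second MS4A6A peak, farther upstream towards MS4A4E, fell less. Control libraries had 22.1, 24.7 and 31.2 normalised reads (lowest, median, highest) and knockdown libraries 4.75, 11.4 and 14.9. These groups did not overlap either. The fitted signal was 2.48-fold lower (means 26.0 ± 3.66 against 10.5 ± 3.62, SD, n = 6 each), with a log2 fold change of -1.31 ± 0.27 (SE, DESeq2 adjusted p = 9.6e-06). Both peaks stayed lost relative to chromosome 11, at -2.09 (adjusted p = 6.8e-07) and -1.04 (adjusted p = 0.000531).

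MS4A14 lies directly after MS4A7, and the peak at its start was the other one with a large loss. Control libraries had 17.3, 28.8 and 31.6 normalised reads (lowest, median, highest) and knockdown libraries 3.30, 6.77 and 12.5. No knockdown library reached the lowest control. The fitted signal was 3.73-fold lower (means 26.7 ± 5.75 against 6.90 ± 3.14, SD, n = 6 each), with a log2 fold change of -1.90 ± 0.31 (SE, DESeq2 adjusted p = 1.4e-08). The loss held relative to chromosome 11, with a log2 fold change of -1.63 (adjusted p = 1.5e-06).

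Complete separation of the libraries within both batches was found at 3 of the 8 peaks, both MS4A6A peaks and the MS4A14 peak, each with the knockdown below the control. Among all peaks 28.3% were separated in either direction, and on chromosome 11 below 110 Mb 21.5% were separated with the knockdown below. Leaving out any single library cost none of these 3 peaks its call, on either scale. The smallest log2 fold changes in those fits, on the scale of all peaks, were -2.18 and -1.20 at the MS4A6A peaks and -1.76 at the MS4A14 peak.

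The peak inside MS4A7 was the strongest of the cluster in control libraries, at 48.0 ± 9.23 normalised reads per kb (SD, n = 6). Its control libraries had 31.7, 43.3 and 54.0 normalised reads (lowest, median, highest) and its knockdown libraries 15.5, 26.8 and 41.9. The groups overlapped through knockdown replicate 6, the highest of its group, which stood above control replicates 4 and 5. The fitted signal was 1.69-fold lower (means 44.3 ± 8.53 against 27.5 ± 8.71, SD, n = 6 each), with a log2 fold change of -0.76 ± 0.21 (SE, DESeq2 adjusted p = 0.00123). Without knockdown replicate 6 it was -0.87. Over the 12 fits that each left out a library it ran from -0.90 to -0.61. The call on the scale of all peaks was kept in all 12 (DESeq2 adjusted p at most 0.0184). About the shift of its chromosome this peak was less firm. Relative to chromosome 11 the log2 fold change was -0.48 (adjusted p = 0.0425). The call was lost when the chromosome 11 median was subtracted instead (adjusted p = 0.0728), as it was with the median of peaks within 5 Mb (adjusted p = 0.0976). It was kept with the median of the 1 Mb flanks (adjusted p = 0.0111) and by edgeR with the chromosome 11 factors (adjusted p = 0.0228). On the chromosome 11 scale, the call was kept in 3 of the 12 fits with a library left out. These were the fits without control replicate 4, control replicate 5 or knockdown replicate 6. In the others the adjusted p lay between 0.0574 and 0.217.

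The upstream MS4A7 peak did not share this loss. Its control libraries had 18.4, 22.1 and 31.6 normalised reads (lowest, median, highest) and its knockdown libraries 15.3, 23.7 and 28.9, so the groups overlapped over most of their range. The log2 fold change was 0.015 ± 0.24 (SE, 95% interval -0.46 to 0.49, DESeq2 adjusted p = 0.970). A loss as large as the estimate at the internal peak lay outside this interval. Measured on the chromosome 11 scale it was 0.29 (adjusted p = 0.336).

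At MS4A3, the progenitor gene, RUNX1 signal over the start site was not called changed. Control libraries had 16.9, 18.8 and 23.4 normalised reads (lowest, median, highest) and knockdown libraries 19.2, 21.3 and 25.0. The groups overlapped, with the knockdown median above the control median. The log2 fold change was 0.16 ± 0.24 (SE, 95% interval -0.30 to 0.63, DESeq2 adjusted p = 0.614), and 0.44 relative to chromosome 11 (adjusted p = 0.123). The promoter window printed above lies wholly within this peak.

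Of the 2 peaks towards MS4A1, on the far side of MS4A14, the one inside MS4A12 was called gained and the one upstream of MS4A5 was not called. The peak inside MS4A12, a gene known from colon epithelium, had 16.4, 22.2 and 31.6 normalised reads in control libraries (lowest, median, highest) and 25.5, 33.2 and 42.9 in knockdown libraries. The groups overlapped through control replicate 6, the highest control, and 5 control libraries stood below every knockdown library. The fitted signal was 1.46-fold higher (means 22.8 ± 4.89 against 34.1 ± 8.06, SD, n = 6 each), with a log2 fold change of 0.55 ± 0.23 (SE, DESeq2 adjusted p = 0.0399). On the scale of all peaks this call was marginal. It was lost without any of control replicates 1, 2, 3, 4 and 5 and knockdown replicates 2, 3 and 6, where the adjusted p lay between 0.0552 and 0.151, and with the replicate number as a block (adjusted p = 0.0548). The chromosome 11 scale gave a firmer call, with a log2 fold change of 0.82 (adjusted p = 0.00117) and at most 0.0128 without any single library.

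The peak upstream of MS4A5, the narrowest of the 8 at 507 bp, had a mean of 12.9 ± 4.43 normalised reads in control libraries and 16.6 ± 4.06 in knockdown libraries (SD, n = 6 each). Its control libraries had 7.03, 12.2 and 18.2 (lowest, median, highest) and its knockdown libraries 13.4, 15.2 and 24.2. The groups overlapped, and the 3 control libraries of batch 1 stood within the knockdown range. The log2 fold change was 0.38 ± 0.30 (SE, 95% interval -0.21 to 0.97, DESeq2 adjusted p = 0.314). Relative to chromosome 11 it was 0.66 (adjusted p = 0.0576), so it was not called there either. On that scale edgeR called it gained (adjusted p = 0.0394). So did subtraction of the median of chromosome 11 (adjusted p = 0.0368) or of peaks within 5 Mb (adjusted p = 0.0271). Subtraction of the median of the 1 Mb flanks did not (adjusted p = 0.141). With single libraries left out it was called gained in 2 of 12 fits. These were the fits without control replicate 1 (adjusted p = 0.0462) or knockdown replicate 1 (adjusted p = 0.0397). In the other 10 fits it was not called, with an adjusted p of up to 0.201.

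**Figure D2:**
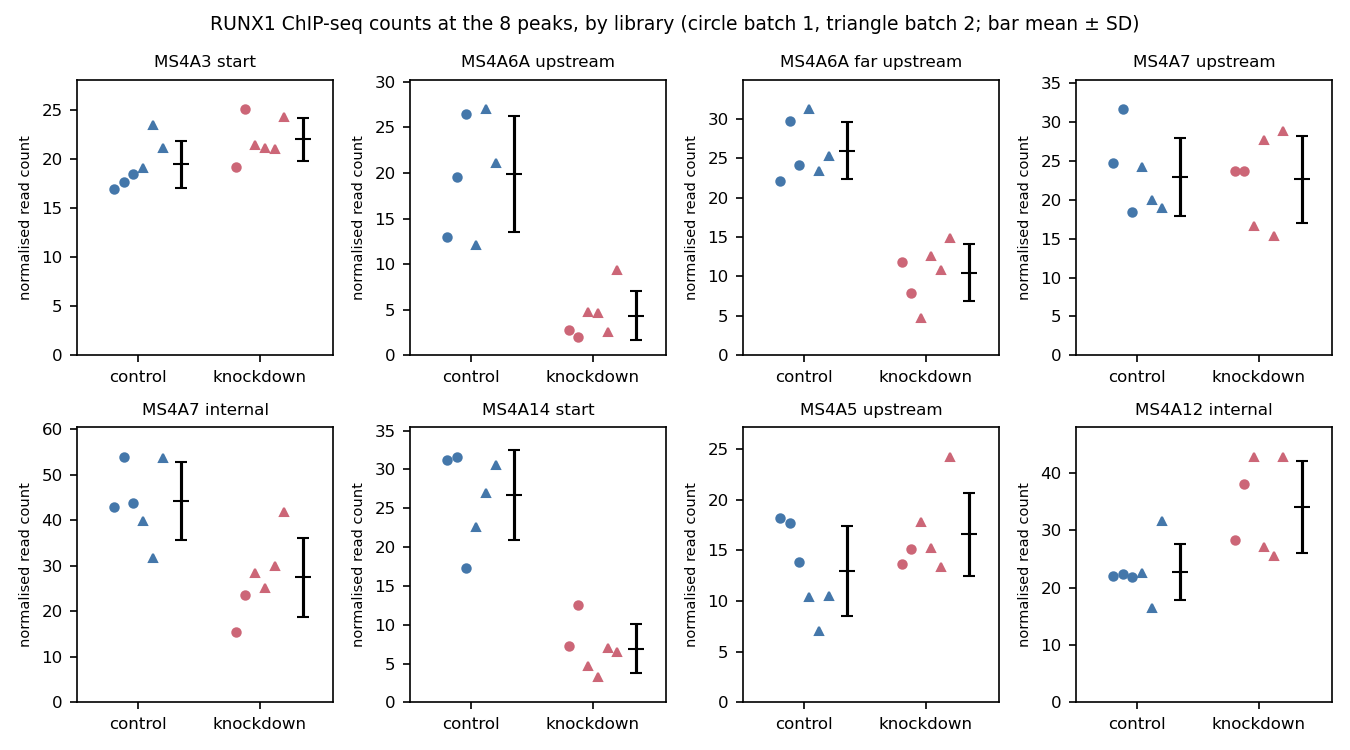
Normalised read counts of each library at the 8 peaks, control in blue and knockdown in red, circles for batch 1 and triangles for batch 2, with mean ± SD of 6 libraries beside each group. At both MS4A6A peaks and the MS4A14 peak all knockdown libraries lie below all control libraries, and at the other 5 peaks the groups overlap.

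On the scale set by chromosome 11 below 110 Mb, the count of calls was again 1 gained and 4 lost, at the same peaks. On that chromosome 21.5% of peaks were gained and 18.9% lost under this scaling, and 48.2% of all peaks were called in either direction. The median of the 8 peaks was -0.097, beside -0.056 on chromosome 11 below 110 Mb. Peaks within 5 Mb of the cluster had a median of -0.36 on the scale of all peaks (133 peaks), and the 1 Mb flanks -0.15 (19 peaks). The 8 peaks together received 176 to 224 normalised reads per control library and 122 to 193 per knockdown library. As a share of chromosome 11 reads that was 0.755% ± 0.068 in control and 0.674% ± 0.125 in knockdown libraries (SD, n = 6 each), and these ranges overlapped.

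**Figure D3:**
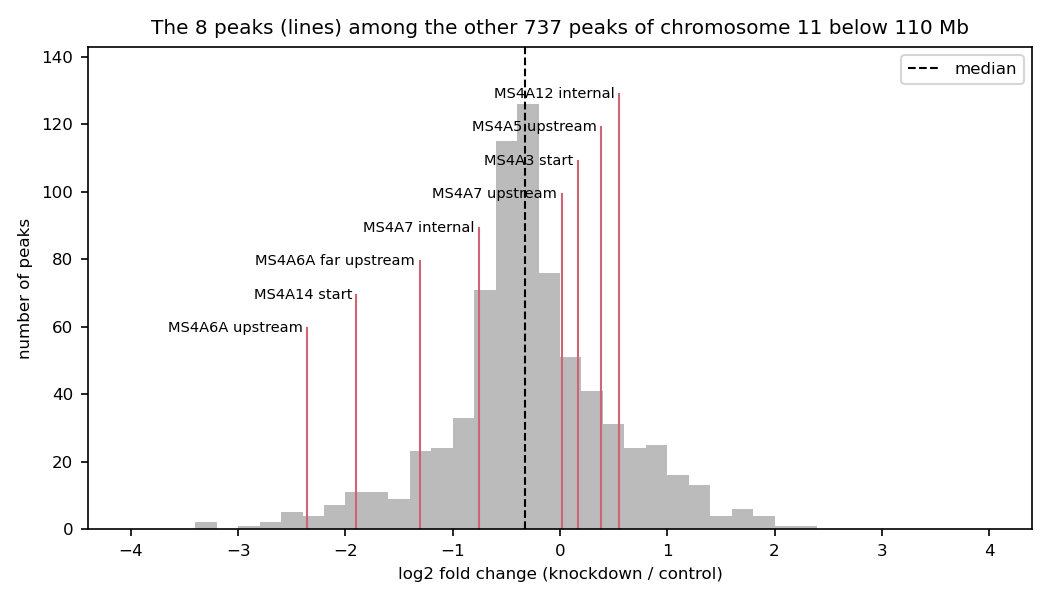
Number of peaks by log2 fold change (knockdown over control) for the other 737 peaks of chromosome 11 below 110 Mb, as grey bars, with the 8 MS4A peaks as red lines and the chromosome median as a dashed line. The peak 434 bp upstream of MS4A6A lies in the lower tail, at the 1.48th percentile, and the 4 peaks that were not lost lie above the median.

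Because neighbouring peaks share a library and any shift of the chromosome, the ratio of the read counts of neighbours was compared between groups within each library. The 7 ratios were tested by a two-sided exact permutation test over the 350 ways to reassign libraries inside their batches, which allows no p below 0.00286, with Benjamini-Hochberg adjustment over the 7. This comparison was chosen after the values had been seen. The ratios reuse the counts of the single-peak tests, and adjoining ratios share a peak. They therefore describe the contrast between neighbours and give no independent support for the calls. The ratio of the MS4A3 peak to the nearer MS4A6A peak rose by 2.44 on the log2 scale, from a control range of -0.51 to 0.62 to a knockdown range of 1.34 to 3.46 (exact permutation p = 0.00286, adjusted 0.00667). The groups did not overlap, although these peaks lie 128056 bp apart on the same chromosome. The ratio of the farther MS4A6A peak to the upstream MS4A7 peak fell by 1.35, and that of the MS4A14 peak to the MS4A5 peak fell by 2.33 (exact permutation p = 0.00286, adjusted 0.00667 for each). Neither pair of ranges overlapped.

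Within MS4A7 and MS4A14 the neighbours also changed unequally. The upstream MS4A7 peak rose relative to the internal one by 0.75 (exact permutation p = 0.0257, adjusted 0.036), and the internal MS4A7 peak rose relative to the MS4A14 peak, 6387 bp away, by 1.15 (exact permutation p = 0.0143, adjusted 0.025). The latter difference was 0.13 in batch 1 and 1.86 in batch 2. Between both MS4A6A peaks the ratio differed by -0.93 (exact permutation p = 0.0543, adjusted 0.0633), and between the MS4A5 and MS4A12 peaks by -0.13 (exact permutation p = 0.543). These last pairs did not pass the test.

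**Figure D4:**
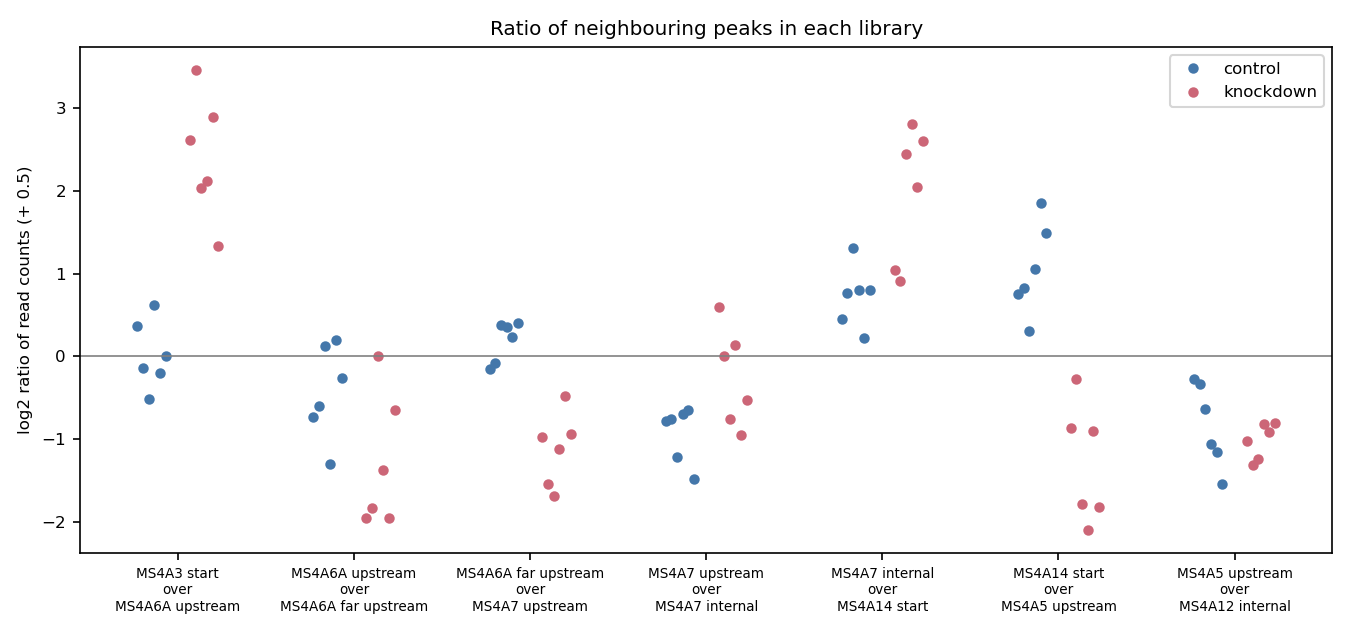
Log2 ratio of the read counts of neighbouring peaks (0.5 added to each count) in each library, control in blue and knockdown in red. The groups separate fully for 3 of the 7 ratios, each between a lost peak and a peak that was not lost. The ratios use the same counts as those calls.

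Within batches the directions of the lost peaks repeated. In batch 1, 2 of the 8 peaks were lost and 0 gained, beside 6.61% lost and 5.38% gained among all peaks. These were the nearer MS4A6A peak (-3.08, adjusted p = 0.00305) and the internal MS4A7 peak (-1.23, adjusted p = 0.0206). The farther MS4A6A peak (-1.37, adjusted p = 0.0622) and the MS4A14 peak (-1.39, adjusted p = 0.0632) were not called. Batch 1 has 5 libraries, and its count fell to 1 without control replicate 2 and to 0 without control replicate 3, knockdown replicate 1 or knockdown replicate 2. By edgeR 4 peaks were lost in this batch, while the shares among all peaks given here are those of DESeq2.

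In batch 2, 3 of the 8 peaks were lost and 0 gained, beside 13.1% lost and 12.8% gained among all peaks. The nearer MS4A6A peak stood at -2.00 (adjusted p = 0.000875), the farther one at -1.26 (adjusted p = 0.00752) and the MS4A14 peak at -2.32 (adjusted p = 6.6e-06). The count was 2 without control replicate 4. The internal MS4A7 peak had -0.43 (adjusted p = 0.266), so it was called within batch 1 and not within batch 2. The median of chromosome 11 below 110 Mb was -0.32 in batch 1 and -0.29 in batch 2. Measured from it, the internal MS4A7 peak lay at -0.91 in batch 1 and -0.14 in batch 2, and the MS4A12 peak at 0.93 and 0.80.

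The difference between batches was tested as an interaction of genotype and batch. It was called at 0 of the 8 peaks by DESeq2 and by edgeR, and at 0.00% of all peaks. Each group had 2 to 4 libraries in a batch, so the lack of calls does not show that the batches were alike. By DESeq2, 0 of the 8 peaks and 669 of all 26642 peaks had an unadjusted p under 0.05, and the lowest value among the 8 was 0.0642. By edgeR, 2 of the 8 peaks and 1424 of all 26642 peaks did, the 2 being the internal MS4A7 peak (0.0411) and the MS4A5 peak (0.0478). The MS4A5 peak had a log2 fold change of -0.18 in batch 1 and 0.91 in batch 2, neither of them called.

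**Figure D5:**
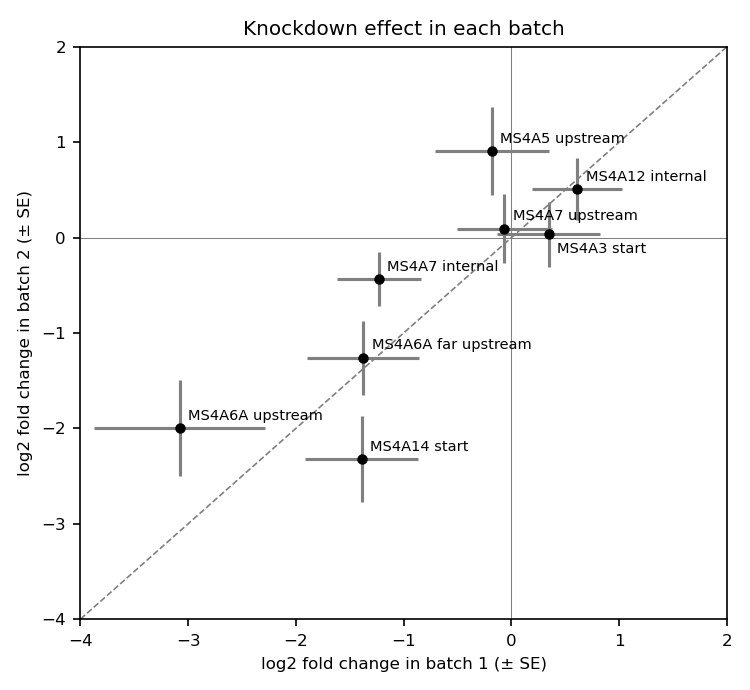
Log2 fold change (knockdown over control, ± SE) at each of the 8 peaks in batch 1 on the x axis and in batch 2 on the y axis, with a dashed line where both are equal. The nearer MS4A6A peak (-3.08 and -2.00), the farther one (-1.37 and -1.26) and the MS4A14 peak (-1.39 and -2.32) are negative in both batches.

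By gene, 2 of the 2 peaks within 50 kb of MS4A6A were lost, and 2 of the 4 within 50 kb of MS4A7. The same 4 peaks lie within 50 kb of MS4A14. The 1 peak near MS4A2 and MS4A3 was not called, and of the 2 near MS4A1 the one inside MS4A12 was gained. SPI1, the gene of PU.1 on the same chromosome, had 9 peaks within 50 kb, of which 4 were lost and 0 gained (median log2 fold change -0.57), beside the 36.4% lost on chromosome 11 below 110 Mb. Scaled to chromosome 11, 3 of these 9 were lost, beside 18.9% on chromosome 11 below 110 Mb under that scaling, and their median was -0.29. The CD300 cluster, another family of myeloid surface receptors, had 23 peaks, of which 5 were lost and 7 gained (median 0.076), beside the 20.7% lost and 21.3% gained over all peaks. No test was made between these loci.

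The internal MS4A7 peak, with the highest mean normalised count of the 8, was also compared with all peaks outside the cluster that had a mean of at least 50 normalised reads. Over the 12 libraries, the Pearson correlation of log2(normalised count + 1) was highest with a peak 6949 bp from PEBP4 (r = 0.927), a peak in S100A13 (r = 0.913) and a peak 663 bp from HENMT1 (r = 0.900), out of 6876 candidates. All 3 were lower in the knockdown, with log2 fold changes of -0.28, -0.54 and -0.32. The points share libraries, size factors and groups, and the correlations are descriptions only.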

How the data were processed

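RUNX1 ChIP-seq counts of 12 libraries were analysed, and the 8 IgG libraries of the series' 20 samples were not analysed here. The authors aligned reads with bowtie2, removed duplicates, ran macs2 on each condition of each batch, kept peaks reproducible between batches, merged both conditions and counted reads with featureCounts (versions are not given in the sources used here). The deposited values are raw counts per peak and library, with no normalization, next to the peak width in bp as another deposited value. Peaks were called on the libraries that are compared, and the comparison is therefore made on regions chosen from the same data. The labels list the builds GRCm38 and GRCh38. Within 1 kb of a RefSeq GRCh38.p14 start site lay 23.4% of the peaks, against 4.76% and 4.83% after a move by 10 kb or 100 kb, and the coordinates were taken as GRCh38.

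DESeq2 1.42.0 in R 4.3.3 was fitted to all 26642 peaks using batch as a covariate and the tool's default size factors (median of ratios). An adjusted p under 0.05 with a fold change over 1.1 made a call. Normalised counts are counts divided by size factors. For values relative to chromosome 11, size factors were computed from its 745 peaks below 110 Mb. Genotype was also tested within each batch and with an interaction term. DESeq2 and both thresholds are those of the study's methods, which name no covariate for these data, and edgeR 4.0.16 (quasi-likelihood) was an alternative, together with other size factors, covariates, thresholds, filters, windows and centres and leaving out each library. The DESeq2 fit, the DESeq2 fit with chromosome 11 size factors and the edgeR fit, each with batch as a covariate, were tested on simulated counts. The other steps were not. Promoter windows were searched with Python 3.11.15.

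The genes, lists, tests and alternatives were chosen with earlier results of these data known. The ratios of neighbouring peaks and the median relative to chromosome 11 were added after the values were seen. All peaks in the window were named, since there were at most 15. The families and neighbouring genes were given by counts with the called peaks named, and likeness by the 3 highest correlations. Replicate numbers are shared between groups but cross the batches. Deviations from the group means of libraries with the same number correlated between -0.090 and 0.235, over 0.1 in 3 of the 6 pairs, so the numbers were not taken to pair the libraries. No duplicated libraries were found (chi-square per degree of freedom 1.29 to 2.24 between libraries of a group).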

Additional observations from a re-analysis of the deposited data

How the results depend on the processing

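The 5 calls among the 8 peaks, and their median log2 fold change of -0.37, were recomputed under each alternative. With at least 10 counts required in every library, 4 peaks could be tested (MS4A3, both MS4A7 peaks and MS4A12), 2 were called and the median was 0.16, since this filter removed 3 of the 4 lost peaks. With a fold change over 2, 3 peaks were called, all lost. Shares of all peaks called under the alternatives of this paragraph are not given. The counts under these alternatives therefore have no background beside them. The median was -1.31 within 10 kb of the genes (5 peaks), -0.76 within 100 kb (9 peaks) and -0.043 after subtraction of the chromosome 11 median. In batch 1, edgeR called 4 peaks instead of 2, and leaving out single libraries gave 0 to 2 calls. With the replicate number as a block (replicate block), 4 peaks were called, all lost, and the median was -0.38. The block removed only the call at MS4A12 (adjusted p = 0.0548). The numbers do not pair the libraries, and 3 libraries correlated best with the library of their own number. Of 148 refits of single peaks, 139 gave the same call, 9 lost the call at MS4A12 and 0 reversed a called direction, while the uncalled upstream MS4A7 peak had values of either sign between -0.065 and 0.11. Counts per peak limit these values: the interval of the log2 fold change was widest at the MS4A6A peak with 31 knockdown reads, and the intervals of the 3 uncalled peaks hold values of either sign. The cause of these differences between alternatives was not tested.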

Other observations

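Farther along the family, both RUNX1 peaks inside MS4A genes outside the 50 kb windows were lost in the knockdown. Of all peaks on chromosome 11 below 110 Mb, 36.4% were lost, and 18.9% under the chromosome 11 scaling. The peak inside MS4A13 (chr11:60528877-60529390), 58125 bp from MS4A1 and just outside the window, had 15.6 ± 5.73 normalised reads in control and 4.87 ± 2.05 in knockdown libraries (SD, n = 6 each), a log2 fold change of -1.62 ± 0.38 (SE, DESeq2 adjusted p = 0.00012). The peak inside MS4A15 (chr11:60759233-60760146) had 31.5 ± 6.26 and 8.89 ± 2.58, a log2 fold change of -1.88 ± 0.27 (adjusted p = 4.0e-11). Relative to chromosome 11 both stayed lost, at -1.36 (adjusted p = 0.0015) and -1.62 (adjusted p = 2.1e-08). The neighbouring peaks at MS4A12 and MS4A13 thus had opposite calls on both scales, although that at MS4A12 was marginal on the scale of all peaks. Whether the peaks differ was not tested.

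Among the peaks within 50 kb of 15 other genes around the cluster, 7 were not among the 8 peaks described above. Of these 7, 2 were gained and 3 lost, beside 13.6% gained and 36.4% lost on chromosome 11 below 110 Mb. Both gained peaks were inside CD6, a T cell surface receptor, with log2 fold changes of 0.66 (adjusted p = 0.0135) and 2.01 (adjusted p = 5.7e-05), the latter from 3.54 ± 2.96 to 14.3 ± 2.79 normalised reads (SD, n = 6 each). The lost peaks lay in MRPL16, a mitochondrial ribosomal protein gene (-0.44, adjusted p = 0.0124), in TCN1, which encodes a vitamin B12 carrier of granulocytes (-0.58, adjusted p = 0.0036), and 31984 bp from CD5, another T cell surface receptor (-1.22, adjusted p = 2.4e-05). Relative to chromosome 11 the calls at CD6 and near CD5 remained, and those in MRPL16 (adjusted p = 0.376) and TCN1 (adjusted p = 0.131) were lost.

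No library stood apart from the others of its group at any of the 8 peaks by Dixon's test at the 95% level (16 groups of 6 libraries). Knockdown replicate 6 at the nearer MS4A6A peak came closest, with a ratio of 0.622 against a limit of 0.625.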
